A study of Mus musculus with 2 samples.

Results

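5-Hydroxymethylcytosine (5-hmC) was compared between imiquimod-treated and Vaseline-treated mouse epidermis in the regions that lie inside genes. The table of differential regions made by the authors places each region against nearby genes, and a region was taken where at least 1 of its position entries read "in gene". This held for 271 of 364 listed regions. The remaining 93 lay upstream or downstream of genes or had no gene nearby, and served for comparison. Both libraries came from the epidermis of C57BL/6J mice aged 6 weeks, treated on the back and an ear for 6 days. The column names mark both libraries as WT, read here as wild type. The imiquimod library came from mice given 3.125 mg of the compound daily as Aldara cream, and the Vaseline library from mice given the vehicle control. Each group held 1 library, and the sources used here do not give the number of mice behind it. The epidermis was whole, so fewer cells of a type and less 5-hmC per cell cannot be told apart. Every difference below compares 2 libraries, with no replicate spread and no test between conditions. A library was taken as Vaseline or imiquimod from the words control and treated in the column names, and every direction rests on that reading.

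TET enzymes make 5-hmC by oxidising 5-methylcytosine, and thymine DNA glycosylase can remove its further oxidised forms. In many tissues 5-hmC lies over the bodies of transcribed genes and at enhancers, many of which are intronic, while active promoters in CpG islands carry little of it. Imiquimod activates Toll-like receptor 7, and mouse skin treated with it repeatedly develops a psoriasis-like inflammation. The assay, hMeDIP-seq, pulls down sonicated DNA with an antibody to 5-hmC and sequences it. The measure is the average tag pileup of a region, that is the mean number of sequenced fragments over its windows. It gives the 5-hmC signal of a whole stretch of DNA and not of single cytosines.

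The regions that carried coding sequence differed most plainly between directions, so coding stretches of 8 of them are shown here. Of the regions with less 5-hmC under imiquimod (called lower below), 118 overlapped a coding exon, and of those with more (called higher) 4 did. The first lines are the stretches in Strn4, Hsd3b7 and Rrad, the coding-exon regions with the greatest ratios, and in Notch1, which was chosen after its values were seen. CpG dinucleotides, where nearly all cytosine methylation and hydroxymethylation of such tissue lies, are in capitals. The sequences run in the direction of the gene, were read from the GENCODE transcripts, and are contiguous pieces of 300 bases or less.
Strn4, mm10 chr7:16839741-16839907, forward strand, 167 bases: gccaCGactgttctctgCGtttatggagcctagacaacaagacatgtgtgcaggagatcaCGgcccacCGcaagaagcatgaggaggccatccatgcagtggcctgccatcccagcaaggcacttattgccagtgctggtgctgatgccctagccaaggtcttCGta
Hsd3b7, mm10 chr7:127802786-127803085, forward strand, 300 bases: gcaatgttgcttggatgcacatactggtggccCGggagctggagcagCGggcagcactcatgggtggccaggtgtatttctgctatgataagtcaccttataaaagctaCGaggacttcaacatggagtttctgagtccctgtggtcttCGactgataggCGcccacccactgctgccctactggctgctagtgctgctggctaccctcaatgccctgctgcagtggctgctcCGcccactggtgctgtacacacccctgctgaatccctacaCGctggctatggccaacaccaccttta
Rrad, mm10 chr8:104629521-104629725, reverse strand, 205 bases: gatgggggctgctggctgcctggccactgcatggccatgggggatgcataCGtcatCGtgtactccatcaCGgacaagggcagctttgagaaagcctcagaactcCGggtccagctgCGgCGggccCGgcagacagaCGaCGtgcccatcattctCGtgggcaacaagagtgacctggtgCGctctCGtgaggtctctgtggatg
Notch1, mm10 chr2:26470822-26471006, reverse strand, 185 bases: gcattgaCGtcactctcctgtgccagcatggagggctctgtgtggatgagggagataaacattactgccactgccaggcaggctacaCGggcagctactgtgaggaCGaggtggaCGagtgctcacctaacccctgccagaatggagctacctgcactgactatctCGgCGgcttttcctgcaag
The 4 higher regions with coding sequence, named after their values were seen, lay in Tbc1d1, Mapt, Trip10 and Krt1, and their coding stretches follow.
Tbc1d1, mm10 chr5:64345252-64345425, forward strand, 174 bases: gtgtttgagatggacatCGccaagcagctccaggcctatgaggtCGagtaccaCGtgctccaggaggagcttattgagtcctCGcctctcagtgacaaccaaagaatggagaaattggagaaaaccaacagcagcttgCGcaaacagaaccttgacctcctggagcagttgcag
Mapt, mm10 chr11:104305212-104305399, forward strand, 188 bases: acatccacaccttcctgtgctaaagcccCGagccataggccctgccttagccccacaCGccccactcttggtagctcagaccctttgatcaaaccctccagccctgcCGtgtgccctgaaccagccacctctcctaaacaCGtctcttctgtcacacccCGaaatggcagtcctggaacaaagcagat
Trip10, mm10 chr17:57256860-57257021, forward strand, 162 bases: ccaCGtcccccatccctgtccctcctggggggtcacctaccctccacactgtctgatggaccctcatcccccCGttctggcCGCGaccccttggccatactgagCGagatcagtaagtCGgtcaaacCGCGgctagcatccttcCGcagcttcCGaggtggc
Krt1, mm10 chr15:101850355-101850654, reverse strand, 300 bases: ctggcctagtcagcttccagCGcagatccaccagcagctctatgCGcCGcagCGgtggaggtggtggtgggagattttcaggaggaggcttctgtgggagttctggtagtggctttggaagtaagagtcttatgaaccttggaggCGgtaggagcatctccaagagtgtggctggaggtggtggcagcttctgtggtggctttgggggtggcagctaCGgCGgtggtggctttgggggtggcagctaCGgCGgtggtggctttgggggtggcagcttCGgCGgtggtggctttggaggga
The Rrad stretch held 12 CpG in 205 bases and the Hsd3b7 stretch 7 in 300 bases. Among the higher stretches Trip10 held 10 CpG in 162 bases and Mapt 5 in 188 bases, so dense and sparse coding sequence occurred in both directions.

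As deposited, most listed regions inside genes were lower. The 5-hmC average was lower under imiquimod in 225 of 271 regions, which is 83.0% (exact binomial 95% interval 78.0% to 87.3%), against 74.5% over all 364 listed regions. It was higher in 46 regions, or 17.0% (12.7% to 22.0%), against 25.5% over all listed regions. The sources used here do not state how the libraries were scaled, and the balance turns with it: with imiquimod averages multiplied by 1.404, so that both libraries sum to the same over all listed regions, 9 lower and 46 higher members stayed at 2-fold. Outside genes 46 of 93 regions were lower, or 49.5% (38.9% to 60.0%), and 47 were higher. The intervals for regions inside and outside genes did not overlap, but they treat regions as independent, which neighbouring regions are not, and they take no account of differences between mice.

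The listed signal levels were alike inside and outside genes, which the authors' selection by tag number and at 2-fold largely fixes. The median lower region inside a gene had an average pileup of 19.3 in Vaseline epidermis (range 12.4 to 28) and 8.67 in imiquimod epidermis (4.55 to 13.3). In higher regions the medians were 10.3 with Vaseline (6.78 to 14.4) and 22.0 with imiquimod (15.7 to 30.8). Within each direction the ranges of the libraries hardly met, which the 2-fold limit of the authors' selection fixes. Outside genes the median imiquimod averages were 8.31 in lower and 22.4 in higher regions, and their intervals overlapped those inside genes. The median ratio inside genes was 2.19-fold lower (range 2.0 to 4.05) or 2.095-fold higher (2.0 to 3.33). As many as 86 of the 271 regions lay under 2.1-fold, just inside the selection limit, and what lay just outside it is not in the list.

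**Figure D1:**
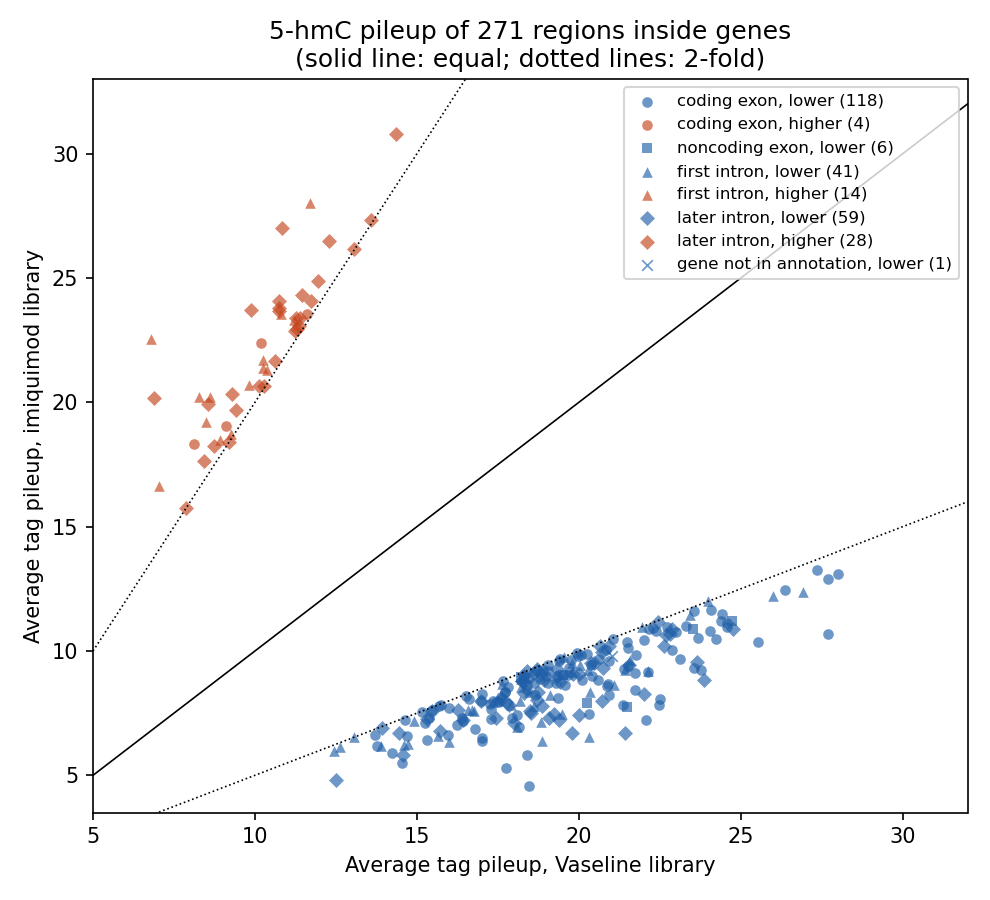
Average 5-hmC tag pileup of the 271 regions inside genes in the Vaseline library (x axis) and the imiquimod library (y axis), 1 point per region, with shape for the part of the gene and colour for direction. The 225 lower regions lie below the line of equal signal and the 46 higher regions above it, and most points sit close to the dotted 2-fold lines because the list was selected at 2-fold.

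Ratios of 2.5-fold or more inside genes were nearly all in lower regions, as deposited. They occurred in 37 lower regions, or 13.7% of the members against 12.6% of all listed regions, and in 2 higher ones, or 0.738% against 3.3%. Outside genes the counts were 9 lower and 10 higher. The 2 higher regions inside genes were in Mbd1 and Rtn1. Of the 225 lower regions, 223 held an interval that the authors called enriched with Vaseline, and 11 held one called with imiquimod. At the 46 higher regions an interval was called in the imiquimod library every time and in the Vaseline library 13 times. The highest pileup of any window shared the direction of the average in each of the 271 regions and passed 2-fold in 165 lower and 29 higher ones. Both measures come from the same reads.

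The lower regions lay over exons far more often than the higher ones. An annotated host transcript was found for 270 regions, all but a lower region at LOC101055946. Of 224 lower regions, 124 overlapped an exon of the host gene, which is 55.4% (48.6% to 62.0%). Of 46 higher regions 4 did, which is 8.70% (2.42% to 20.8%), and the intervals lie well apart. Since short genes offer more exon, each region was set beside all windows of its own length in its own gene. Such windows touched an exon in 34.9% of positions for the genes of the lower regions and in 18.1% for those of the higher regions. Lower regions were thus over exons more often than windows in the same genes. Higher regions were so less often by value, although their interval includes the share of their windows. The windows are all positions in a gene and not enriched intervals. An interval was called with Vaseline in 223 of 225 lower regions, and with imiquimod in all 46 higher ones. Enriched intervals that did not differ were not analysed here. Where the mark lies in a library and where it changed therefore cannot be told apart. The exon counts use the first annotated host of a region, and an exon of a second host gene was touched by 3 further lower regions and 1 further higher one.

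Coding sequence made up most of this overlap. Among the lower regions 118 overlapped a coding exon and 6 only a noncoding one, 41 lay in the first intron and 59 in a later intron. Among the higher regions the counts were 4, 0, 14 and 28. The last exon of the transcript was reached by 35 lower regions, or 15.6% (11.1% to 21.1%), and by 0 of 46 higher regions, with an exact interval of up to 7.71%. A lower region spanned 2 or more exons in 37 cases and a higher region in 0 cases. Stricter measures gave smaller shares with the same order: the region's midpoint lay in an exon in 35.7% of lower and 2.17% of higher regions, and exon made up at least 50% of the region in 26.3% and 2.17%. First introns took 18.8% of the lower regions by the matching transcript (13.9% to 24.5%) against 25.3% of windows, and 30.4% of the higher ones (17.7% to 45.7%) against 28.3% of windows.

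Within the lower regions the listed levels were alike across parts of the gene, which the selection at about 50 tags and 2-fold largely fixes. The median average was 19.5 with Vaseline and 8.81 with imiquimod for coding exons. For first introns it was 18.6 and 8.0, and for later introns 18.9 and 8.75. The median ratios, 2.17-fold, 2.21-fold and 2.20-fold lower, had intervals that overlapped. The host genes did differ, with a median length of 20.9 kb for coding-exon regions against 97.7 kb for first introns and 102 kb for later introns.

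Host genes of higher regions had the greater median length. Their median transcript length was 97.1 kb (order-statistic 95% interval 54.9 to 166 kb), against 44.0 kb (32.8 to 60.4 kb) for lower regions, and these intervals overlap. With a single listed gene only, the medians were 130.7 kb and 75.01 kb. A host of 100 kb or more held 23 of 46 higher regions, or 50% (34.9% to 65.1%), and 66 of 224 lower ones, or 29.5% (23.6% to 35.9%). The intervals of these shares overlap at their ends. At 300 kb or more stood 7 higher regions and 9 lower ones. Within the ratios left by the selection, the size of the difference did not follow length. Over the 224 lower regions Spearman's rho between host length and the size of the log2 ratio was -0.06, and over the 46 higher ones -0.07. These are descriptions across regions of the same libraries. The limit of 2-fold left little range, with 86 of the 271 regions under 2.1-fold, so these values cannot show whether a relation exists.

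Exon overlap was greater in value among lower regions in each quartile of host length, but the intervals of the directions overlapped in the longer 2 quartiles. Among genes from 0.41 to 19.2 kb, the shortest quartile, 57 of 61 lower regions touched an exon, 93.4% (84.1% to 98.2%) against 71.4% of windows. In the next quartile, up to 49.5 kb, the share was 66.1% (52.6% to 77.9%) against 35.3% of windows. From 50.03 to 125 kb it was 33.9% (21.8% to 47.8%) against 17.5%, and in the longest genes, from 133 to 1643 kb, 18.8% (8.95% to 32.6%) against 8.96%. In each of the first 3 quartiles the interval of the lower regions lay above the share of windows, and in the longest genes its lower end met it. Higher regions touched an exon in 2 of 7, 0 of 8, 1 of 11 and 1 of 20 cases from the shortest to the longest quartile, each below the share of windows in value and with wide intervals. The share of higher regions among all members was 10.3%, 11.9%, 16.4% and 29.4% in the same order, and the interval in the longest quartile was 19.0% to 41.7%.

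**Figure D2:**
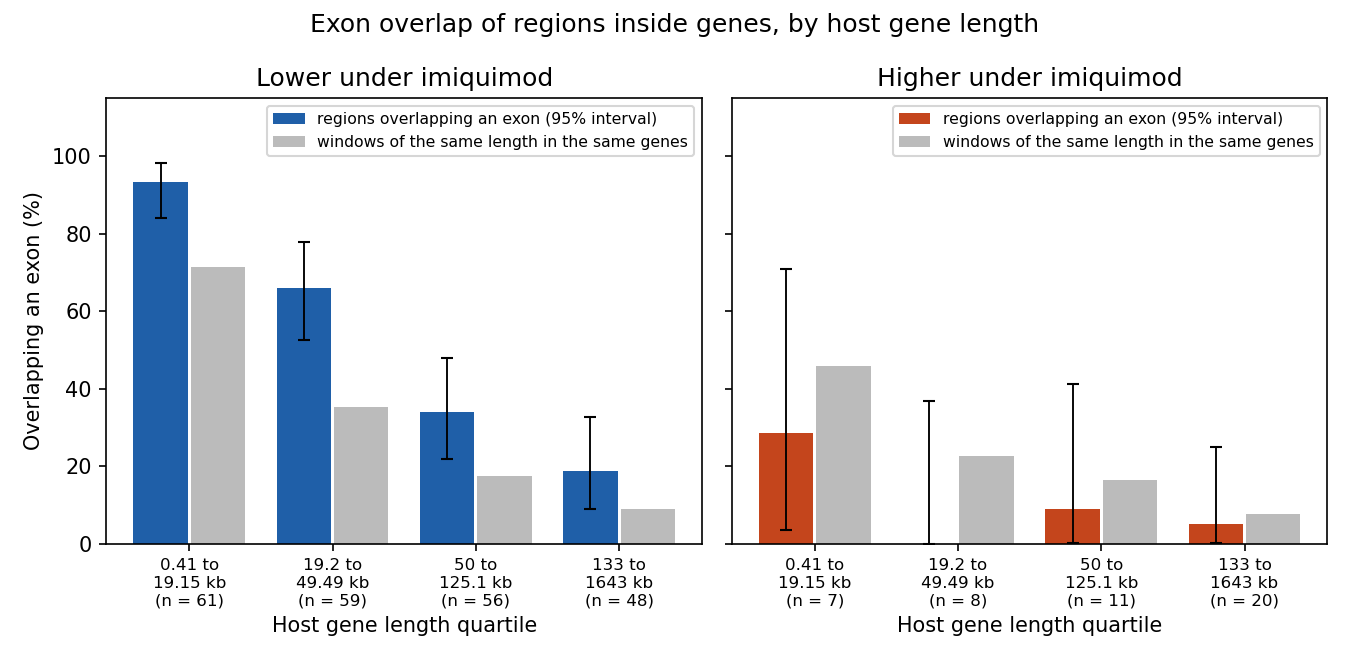
Percent of regions that overlap an exon of their host gene, by quartile of host length (x axis, kb), for lower regions on the left and higher regions on the right; whiskers are exact binomial 95% intervals and grey bars the mean share of windows of the same length in the same genes. Lower regions exceed their windows in all 4 quartiles, from 93.4% against 71.4% to 18.8% against 8.96%, and higher regions lie below theirs in value in all 4.

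Along the gene no lean of either direction went beyond its interval. The median midpoint of a lower region lay at 55.4% of the transcript's length from the start (48.5% to 60.5%), and that of a higher region at 47.3% (38.1% to 61.3%), so the medians did not differ beyond their intervals and both intervals include 50%. The last 25% of the gene held 69 of 224 lower regions, 30.8% (24.8% to 37.3%), and 9 of 46 higher ones, 19.6% (9.36% to 33.9%). The first 25% held 52 lower and 9 higher regions, and an even share of 25% is inside the interval of each of these shares. Exon overlap among lower regions went from 28.8% in that first stretch through 48.9% and 60.7% to 75.4% in the last. Windows over the whole of the same genes touched an exon in 30.6%, 38.1%, 38.6% and 32.95% of positions. The first stretch thus showed no excess over its windows. None of this allows for how exon density changes along genes, which was not measured. In the first 25% of the gene 28 of the 52 lower regions lay in the first intron.

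By value, the share of higher regions was greater only beyond 100 kb from the start. Within 2 kb of the start lay 21 lower regions and 4 higher ones, and higher regions made up 10.6% to 16.0% of the members in each bin up to 100 kb. Beyond 100 kb 14 of 35 regions were higher, or 40.0% (23.9% to 57.9%). That interval overlaps those within 2 kb (4.54% to 36.1%) and from 50 to 100 kb (5.30% to 27.9%). It lay above those from 2 to 10 kb (up to 20.6%) and from 10 to 50 kb (up to 23.3%). A region beyond 100 kb needs a host longer than that, so distance and host length cannot be told apart. At 500 kb or more stood 4 higher regions and 1 lower region.

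**Figure D3:**
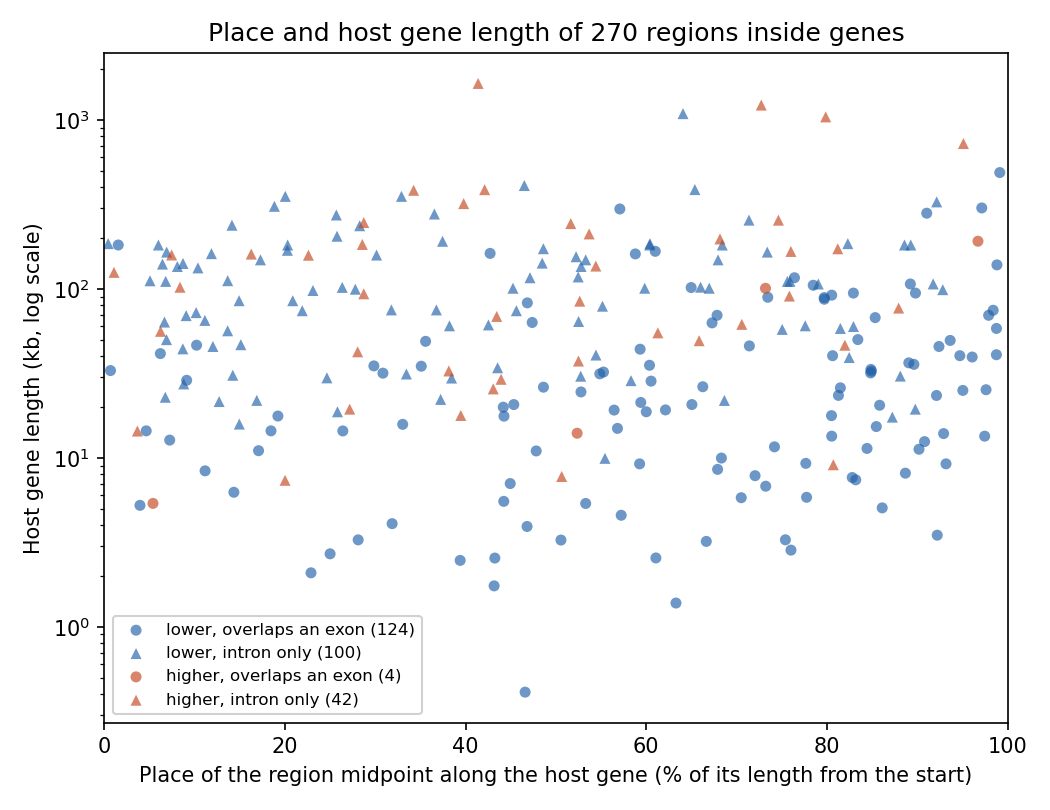
Place of each region's midpoint along its host transcript (x axis, percent of the length from the start) and host length (y axis, kb, log scale) for 270 regions, with circles for exon overlap and triangles for introns. Blue circles, the 124 lower regions over exons, fill the short genes and the right side of the plot, while the 42 higher regions in introns are scattered among longer genes.

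The longest genes showed both directions. Csmd1, a gene of 1643 kb for a large membrane protein with complement-control domains, had an average of 10.7 in the Vaseline and 23.8 in the imiquimod library, 2.22-fold higher (1.40 to 3.55). Park2, which encodes the ubiquitin ligase parkin, spans 1223 kb and had 9.29 and 20.4, 2.19-fold higher (1.30 to 3.73), in an intron that also holds an exon of Gm10513 under the region. Cdh13, the gene of T-cadherin, had 10.8 and 23.7 at 832 kb from its start. Against these, the intron of Asic2, an acid-sensing ion channel gene of 1088 kb, had 26.9 and 12.4, 2.18-fold lower (1.35 to 3.68). The regions in Park2, Cdh13 and Asic2 were the 3 farthest from a start.

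At the other end of the scale the 3 shortest host genes had lower regions. So did most short hosts, at 61 of 68 regions (89.7%) in the shortest quartile. Prm3, a single-exon gene of 0.41 kb in the sperm protamine cluster, lies wholly under a region with 22.1 in the Vaseline and 7.24 in the imiquimod library, 3.05-fold lower (1.74 to 5.64). The region over Gpha2, which encodes a glycoprotein hormone subunit, had 22.9 and 10.03, and the one over Tmem52, for a transmembrane protein, 17.7 and 8.33. Both covered parts of 3 exons and the introns between them. A single-exon gene was host to 6 lower regions and 0 higher ones, where 83.0% of all members were lower, so neither count stands apart.

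The greatest losses were spread over exons and introns. Over exon 17 of 18 of Strn4, a scaffold of the STRIPAK phosphatase complex, the average was 18.4 in the Vaseline and 4.55 in the imiquimod library, or 52.3 and 12.9 tags (chromosome 7, 16839375 to 16840010), which is 4.05-fold lower (2.15 to 8.01). Hsd3b7, whose enzyme acts in bile acid synthesis, had 17.8 and 5.31 over its last exons, 3.34-fold lower (2.08 to 5.87). Rrad, for a Ras-like GTPase, had 18.4 and 5.80 over its coding middle, 3.17-fold lower (1.79 to 5.99). The other coding-exon regions of this group were in Prm3, in Prom2, a prominin of epithelial membrane protrusions (2.87-fold), and in Wiz, a zinc-finger partner of histone methyltransferases (2.79-fold), the latter over an exon of a transcript other than the one matched by distance. Introns held the rest. In intron 2 of Arid1b, whose product belongs to the BAF chromatin remodeller, the averages were 21.4 and 6.71, 3.19-fold lower (1.81 to 5.84). The first introns of Tbcel, for a tubulin cofactor-like protein (3.11-fold), and of Clmn, for calmin (2.95-fold), and intron 3 of Ispd, for an enzyme of dystroglycan glycosylation (2.96-fold), followed. The intervals of these 10 regions overlap, so their order is not resolved at this depth.

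The 10 greatest gains were all intronic, but only 4 of all 46 higher regions (8.70%) overlapped an exon, so this does not stand apart. In the first intron of Mbd1, a reader of methylated CpG, 528 bp from the start and at a CpG island, the average was 6.78 in the Vaseline and 22.6 in the imiquimod library, 3.33-fold higher (1.94 to 6.00). Intron 3 of Rtn1, for a reticulon of the endoplasmic reticulum, had 6.89 and 20.2, 2.92-fold higher (1.73 to 5.44). Kpna4, an importin gene, had 10.8 and 27.0 in intron 7, 2.49-fold higher (1.44 to 4.25). Below these lay the first introns of Tshz2, for a zinc-finger transcription factor (2.45-fold), of the long noncoding RNA gene 2310034O05Rik (2.39-fold), of Kcnmb4, for a potassium channel subunit (2.36-fold), of Acss3, for a mitochondrial acyl-CoA synthetase (2.35-fold), and of Stox2 (2.26-fold). Later introns of the potassium channel gene Kcnh1 (2.40-fold) and of Ptpdc1, for a phosphatase (2.33-fold), completed the set. The Vaseline averages of Mbd1 and Rtn1 were the lowest among the higher regions inside genes.

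The regions of highest signal named here ranged from 2.01-fold to 2.59-fold, and that of 2310034O05Rik was also among the 10 greatest gains. In the Vaseline library they included 28 over coding exon of Cbs, an enzyme gene of homocysteine metabolism, and 27.7 over coding exon of Adcy6, an adenylyl cyclase. Under imiquimod these had 13.1 and 10.7, so both kept more signal than the median lower region. Adcy6 had 147 tags against 56.8, which is 2.59-fold lower (1.89 to 3.57). In the imiquimod library the highest averages were 30.8 in an intron of the predicted gene Gm13247, 28 in 2310034O05Rik and 27.4 in an intron of Sec16b, a gene of the endoplasmic reticulum exit machinery, and these stood at 14.4, 11.7 and 13.6 in the Vaseline library.

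The 4 coding-exon regions among the gains had ordinary ratios. Over the first exon of Krt1, the type II keratin of suprabasal epidermis, the average was 8.13 in the Vaseline and 18.3 in the imiquimod library, 2.25-fold higher (1.39 to 3.64). Trip10, for a CDC42-interacting protein, had 10.2 and 22.4, Mapt, for the microtubule protein tau, 9.11 and 19.1, and Tbc1d1, for a Rab GTPase-activating protein, 11.6 and 23.6. In Trip10 and Mapt the exon belonged to a transcript other than the one matched by distance. The Krt1 region was the only one of the 46 in which exon made up at least 50% of the length.

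Coding stretches of the lower regions had a slightly greater median of CpG than the coding sequences of their genes, but not beyond the intervals. Over 118 regions the median was 4.48 CpG per 100 coding bases (4.15 to 4.80), against 3.97 (3.77 to 4.41) over the whole coding sequences of the same transcripts, and 69 of the 118 lay above their own coding sequence. The medians' intervals overlap, and they do not use the pairing of a stretch with its own gene. In Prm3 and Gpha2 the region held the whole coding sequence, so the values could not differ. Any overlap with coding sequence was counted. The lower stretches ran from 7 to 1071 coding bases (median 277.5), and a density over the shortest of them says little. The 4 higher stretches ran from 2.66 to 6.17, and 1 of them lay above its own coding sequence. Coding sequence under enriched intervals that did not differ was not analysed here, nor were introns.

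CpG islands, as annotated by the authors, were touched by 25 of 225 lower regions, or 11.1% (7.32% to 16.0%), and by 1 of 46 higher regions, that of Mbd1, or 2.17% (0.0550% to 11.5%), and the intervals overlap. Of the 25, 21 overlapped a coding exon, 17 had a host under 20 kb and 11 lay within 2 kb of the start. Farther from the start lay, for example, the coding exon of the homeobox gene Irx1, with 14.5 in the Vaseline and 5.50 in the imiquimod library, and the last exon of Cux1, a homeobox transcription factor, with 19.6 and 8.62. Irx1 was named after its values were seen. Promoter windows of RefSeq (GRCm38.p6), from 250 bases before to 50 after the start, were at hand for 177 of 244 host genes. A region touched its host's window in 3 cases, named after their values were seen: Prm3, Aebp2, for a Polycomb cofactor (2.17-fold), and Gp1bb, for a platelet glycoprotein (2.07-fold), all lower. The first exon of the noncoding gene 1700025H01Rik, 205 bp from its start, had 20.2 and 7.92.

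Genes with more than 1 region kept a single direction. Of 244 host genes, 4 held 3 or more regions and 15 held 2, all of them lower, and 0 held both directions. Over all members 83.0% were lower, and neighbouring regions are not independent, so a single direction within a gene does not stand apart. These 19 genes account for 46 of the 225 lower regions, while each higher region had a gene of its own. Zbtb16, for the transcription factor PLZF, held 7 regions over 159 kb, from 2.01-fold to 2.59-fold lower. Its Vaseline averages ran from 12.5 to 22.4 and its imiquimod averages from 4.83 to 11.1. The region at its coding exon 2 was the longest member, at 1680 bp, and its other 6 regions were intronic.

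In the other 3 genes of this kind each region lay in introns of the gene itself. Ptpn14, for a phosphatase that binds the Hippo effector YAP, had 3 regions from 25.6 to 100.9 kb from its start, with Vaseline averages from 14.7 to 19.3 and imiquimod averages from 6.24 to 9.27. In Sipa1l3, for a Rap GTPase-activating protein, 3 regions spread over 152 kb had 18 to 20.3 and 7.10 to 9.22, and 1 of them lay 777 bp from the start. In 3110082I17Rik 3 regions within 22.1 kb had 15.7 to 22.8 and 6.79 to 10.7, and 2 of them lay over exons of a second host gene, C130050O18Rik and Gpr146. Regions of a gene come from the same libraries and are not replicates. Among genes with 2 regions, Psmd3, for a proteasome subunit, and Bsn, for the presynaptic scaffold bassoon, had both over coding exons near the 3' end, and Eppk1, for the keratin-binding epiplakin, had 1 in its first intron (22.1 and 9.20) and 1 in its coding exon (23.7 and 10.5).

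**Figure D4:**
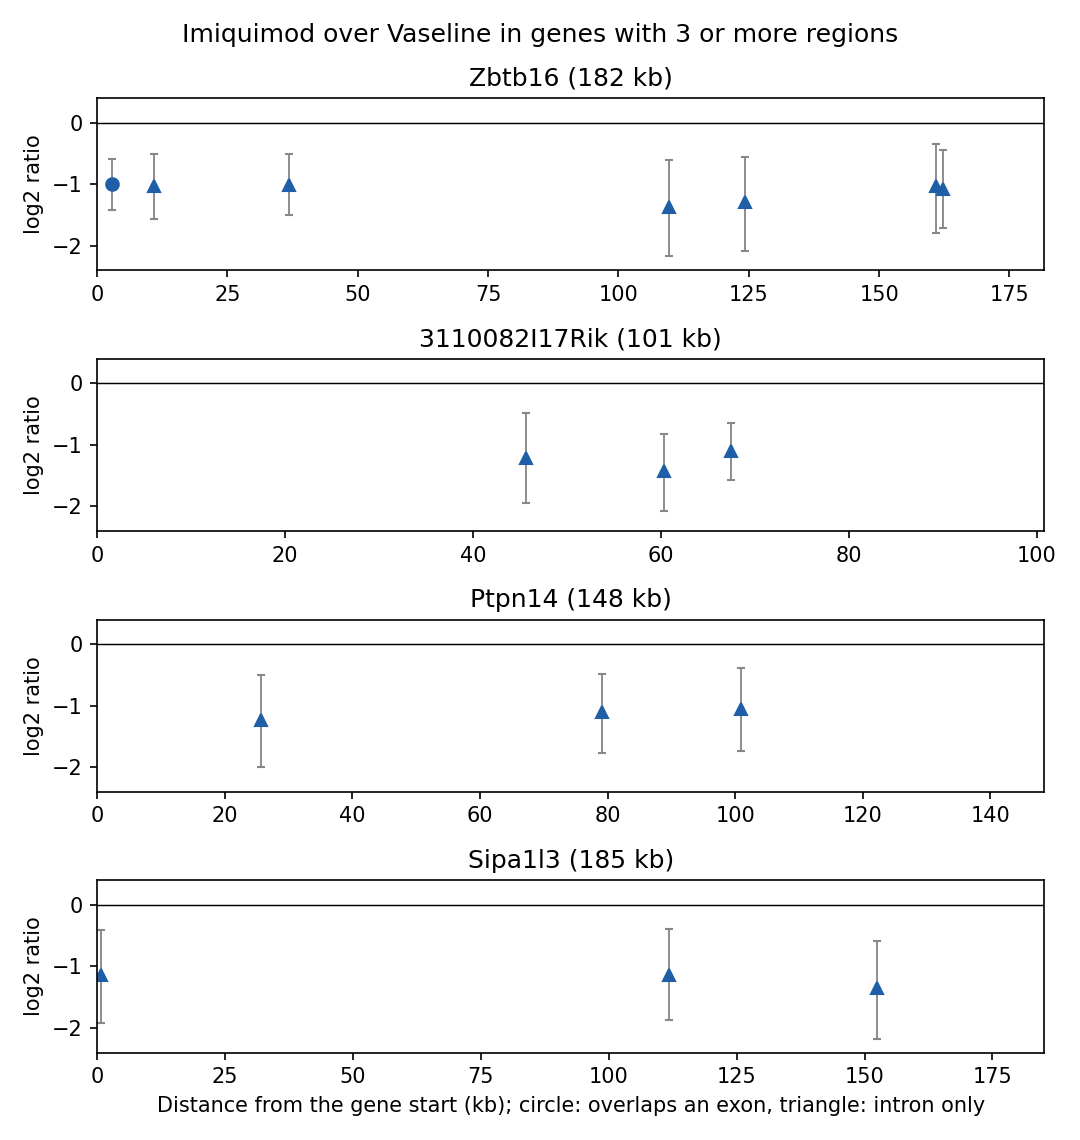
log2 ratio of imiquimod over Vaseline average pileup (y axis) against distance from the gene start (x axis, kb) for the 4 genes with 3 or more regions; bars are exact 95% intervals for counting error, circles overlap an exon of the gene and triangles lie in its introns. All 16 regions lie below 0, and their intervals overlap within each gene.

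Host genes were also read by function against 15 lists of 706 genes. A region lay in 47 of these genes, 60 regions in all, and 12 lists had at least 1. The median log2 ratio over all 271 members was -1.10, and a list's median near that value is no more than the background. Since 83.0% of the members were lower, a short list that is wholly lower does not stand apart.

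Small GTPase regulators had the most regions, 13 lower and 0 higher in 9 of 70 genes (median log2 -1.15, ratios from 2.04-fold to 3.17-fold). Besides Rrad they included the Rap GTPase-activating genes Sipa1l1 (23.0 and 10.8), Sipa1l2 (20.1 and 9.83) and Sipa1l3, the Ras GTPase-activating gene Rasa3 with 2 regions (16.0 and 6.32, 22.6 and 10.2), and the exchange factor gene Vav2 with 2 (13.9 and 6.18, 17.8 and 7.95). Arhgef18 (17.4 and 7.96) and Arhgef4 (17.3 and 7.87), also exchange factors, and Asap2 (17.9 and 7.81), an Arf GTPase-activating gene, had 1 each. The Vaseline average comes first in each pair. Of the 13 regions 4 overlapped an exon.

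The ion channel and neuronal adhesion list was the one list with gains alone, at 0 lower and 7 higher regions in 7 of 93 genes (median log2 1.15). Beside Csmd1, Cdh13, Rtn1, Kcnh1 and Kcnmb4 it held Robo1, a Slit receptor (11.4 and 23.1), and Dpp10, an auxiliary subunit of potassium channels (9.21 and 18.4). All 7 regions were intronic and the median host was 383 kb long, so gene length and function cannot be told apart here. Other genes of neuronal type, Asic2 and Bsn, are not on the list and had lower regions, 1 and 2; Bsn was picked out after its values were known. The list was drawn up with earlier results known, so its direction is not independent evidence.

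**Figure D5:**
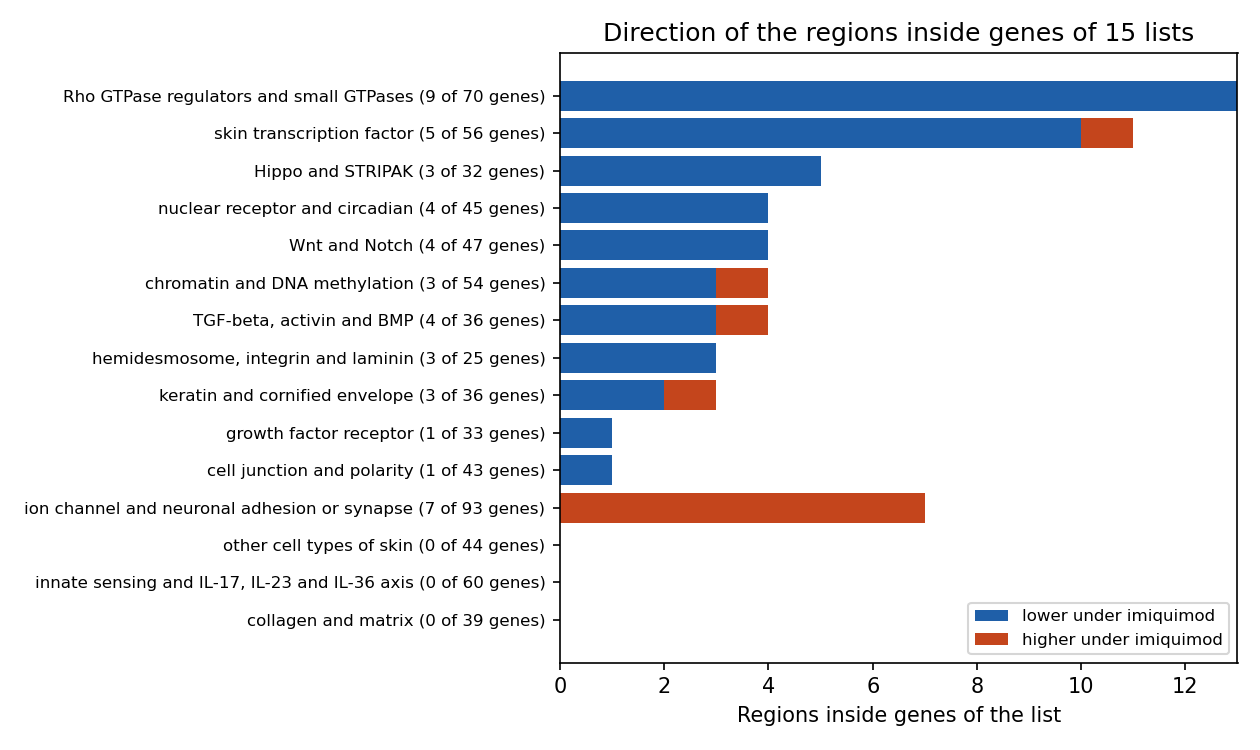
Number of regions inside genes of each of 15 lists (x axis), lower in blue and higher in red, with the number of list genes that held a region in brackets. The small GTPase list has 13 lower and 0 higher regions and the ion channel and neuronal list 0 lower and 7 higher, while 3 lists have none.

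Transcription factors of skin had 10 lower regions and 1 higher in 5 of 56 genes, 7 of them in Zbtb16 alone. The others were Nfix, a nuclear factor I gene, over coding exon 6 (24.4 and 11.2), Cux1, Nfatc1, which marks quiescent hair follicle stem cells, in an intron (21.6 and 9.44), and the gain in Tshz2. Hippo and STRIPAK genes had 5 lower regions in Strn4, Ptpn14 and Vgll4, the last for a TEAD cofactor that opposes YAP (20.04 and 9.43). Nuclear receptor and clock genes with lower regions over coding exons included Rara, a retinoic acid receptor (21.8 and 9.86), Nr1d1, which encodes REV-ERB alpha (24.4 and 11.5), and Per1, a period gene (16.5 and 8.19).

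Wnt and Notch genes also had 4 lower regions. Notch1, a receptor that promotes keratinocyte differentiation, had 23.6 in the Vaseline and 9.33 in the imiquimod library over its coding exons, 2.52-fold lower (1.70 to 3.83). The co-receptor Lrp5 (15.7 and 7.81), the ligand Wnt7b (15.7 and 7.78) and the feedback inhibitor Axin2 (18.4 and 9.18) lay within 2.01-fold, at the selection limit. In the TGF-beta list Ltbp3, for a latent TGF-beta binding protein (15.4 and 7.31), the ligand Bmp7 (19.8 and 9.50) and the activin receptor Acvr2b (19.96 and 9.79) were lower, and Ltbp1, the relative of Ltbp3, was higher in intron 4 (7.88 and 15.8).

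Structural genes of the keratinocyte held few regions. The hemidesmosome list had 3, all lower: Dst (18.1 and 6.95) and Plec (18.9 and 7.78), which encode plakins that tie keratin filaments to the hemidesmosome, and Lama5 (19.9 and 9.90), a laminin chain of the basement membrane. Of the keratin and cornified envelope genes, introns of Krt80 (22.7 and 10.6) and of Scel, for sciellin (2.21-fold), were lower and Krt1 was higher. The chromatin list held Arid1b with 2 lower regions, Wiz and Mbd1. Cell junction genes contributed Prom2 alone and growth factor receptors Ptk7 (21.6 and 9.65), a pseudokinase of planar cell polarity.

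No region lay inside any of the 39 collagen and matrix genes, the 60 genes of innate sensing and the IL-17, IL-23 and IL-36 axis, or the 44 markers of other cell types of skin. A list of regions selected at 2-fold does not show the level of the mark in these genes, and 5-hmC at markers was not measured as such. Their absence says only that no differential region was listed there.

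Members were found on every autosome and 0 on the X chromosome. Lower regions outnumbered higher ones on 18 of 19 autosomes, with 21 and 2 on chromosome 11 and 19 and 2 on chromosome 7, and chromosome 18 was the exception at 2 and 3. All 4 members on chromosome 14 and all 10 on chromosome 19 were lower. Since 83.0% of all members were lower, these counts by chromosome do not stand apart.

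The counting error of a single region was wide. The larger of both tag numbers ranged from 49.5 to 147 and reached 100 in 10 lower and 0 higher regions, and a region's interval reached a median of 0.71 to either side on the log2 scale. No interval of the 271 ratios included 1, and the smallest lower bound was 1.21-fold in either direction, but the regions had been chosen for their ratio and the intervals do not allow for that. Total reads per library are not stated in the sources used here.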

How the data were processed

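Per the labels' protocols, DNA of dispase-separated epidermis was immunoprecipitated with a 5-hmC antibody and sequenced. The submitters' processing notes name CASAVA, MACS2 and mm10 and no version. For the aligner, an input control and the scaling of the libraries nothing is given in the sources used here. Intervals of 4 libraries were merged into regions, per the file headers, and 6 columns of libraries outside this series were not used. The authors deposited regions chosen at about 50 tags and 2-fold. The deposited signal is an average and a highest tag pileup. The log2 ratio deposited by the authors is that of both averages, and their deposited tag score equals the larger average times length divided by 224, in all 364 regions. Interval calls, CpG islands, gene positions and distances were used as deposited by the authors.

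Tags of each library were computed here by the same formula. Intervals are Clopper-Pearson at 95%, given the sum of rounded tags, and cover counting error only, as fragments carried no molecular identifiers and may be copies of 1 molecule. Medians carry order-statistic intervals. Region coordinates are as deposited, where starts may count from 0, and those of printed sequences count from 1. Of 280 in-gene entries, 279 matched GENCODE M21 basic (GRCm38), 10 through a synonym, and 277 matched a transcript start within 1000 bp; 9 regions had several entries, of which the first annotated one was used. Window shares count every position of a window of the region's length in the gene.

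The rule for named genes took the 10 greatest ratios each way, genes with 3 or more regions, host genes on 15 lists, the 3 nearest and farthest from the start, the 3 longest and shortest hosts, and the 3 highest averages per library. The result for 1 gene that this rule names is not reported here. The members and lists were chosen with earlier results of these data known. CpG content of whole regions was not analysed here, since no genome sequence was used, so the planned extremes by CpG were not named. Alternatives were 100 tags, 2.5-fold, the highest pileup, equal sums, autosomes, regions with a single listed gene, 1 region per gene, annotated gene bodies and other exon measures. Python 3.11.15, numpy 2.4.6, pandas 2.3.3, SciPy 1.17.1 and matplotlib 3.10.9 were used. The interval and overlap functions were tested on simulated data.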

Additional observations from a re-analysis of the deposited data

How the results depend on the processing

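Of 63 alternative values, 42 stayed within the limits of the reported value. Some of these could not move. No member lay on a sex chromosome, each higher region had a gene of its own, and equal sums only raise the ratios of higher regions. Only the log2 ratios could change sign, and 0 did, so the tally is no measure of robustness. At 100 tags or more stood 10 lower and 0 higher regions, so no median could be given for the latter, and a minimum of 2.5-fold left 37 and 2. With imiquimod averages scaled by 1.404 to equal sums, 9 lower and 46 higher regions stayed at 2-fold, so the majority turned from lower to higher; regions that would enter at that scaling are not in the list. The highest pileup at 2-fold left 29 higher regions. The share of lower regions over an exon was 26.3% with at least 50% of the region in exon, 35.7% by midpoint and 42.3% with a single listed gene. For higher regions it was 2.17% by either exon measure and 0% at 2.5-fold. At 2.5-fold the 2 higher regions had 50% in the first intron and a median place of 35.9%. With a single listed gene the median host of lower regions was 75.01 kb and that of higher regions 130.7 kb. The median log2 ratio of lower regions was -1.16 by highest pileup, -0.64 at equal sums and -1.40 at 2.5-fold, and that of higher regions 1.04, 1.56 and 1.64. Both sets shrink by construction at stricter limits, and their median ratios at 2.5-fold move away from 0 by construction too. Equal sums move every log2 ratio by the same amount, and the stricter exon measures count a part of the overlapping regions. Those shifts are therefore arithmetic. The cause of the other shifts was not tested. The planned CpG content of whole regions was not run, since no genome sequence was used. No paired analysis was possible because each group had 1 library, which also left no replicate to leave out. Depth limits every single ratio, while shares over regions rest on the authors' selection and on 1 library per group.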
